A study of Homo sapiens with 12 samples.

Results

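Nucleocytoplasmic transport was followed through 47 genes, the nucleoporins that build the nuclear pore, the RAN GTPase with its regulators, and the import and export receptors, in HK-2 cells, an immortalised line from human kidney proximal tubule epithelium. The genes were chosen by symbol, with earlier results of these data in view, and each is represented by the probe set annotated to it alone that had the highest mean over all 12 arrays. All 47 of the 19775 genes with such a probe set were found, and 46 of them passed the filter on low values and were tested among 10574 genes. IPO11 did not pass, with a log2 value of at most 2.47 on any array, whereas every other gene of the set was over the filter on all 12 arrays. They fall into 23 nucleoporins, 4 genes of the RAN cycle, 5 importin alphas, 8 importin betas (7 tested) and 7 exportins, and the last 3 classes together are called the transport receptors (20 genes, 19 tested). Since the mean level picked the probe sets, levels are given only as descriptions and are not compared between genes.

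The arrays form 4 groups of 3 biological replicates: HK-2 cells exposed to Kbr for 24 h or for 48 h, and control cells given vehicle for 24 h or for 48 h. The labels give the Kbr dose as high, without a concentration, and name the compound only in that short form. Cells were plated 24 h before treatment in a defined medium with EGF, hydrocortisone, insulin, transferrin and selenite, and were nearly confluent when treated. HK-2 is 1 immortalised line, so the groups share 1 genetic background. In total RNA from a culture, fewer cells of a type and less RNA per cell cannot be told apart.

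The nuclear pore complex is a channel through the nuclear envelope, made of stacked rings of scaffold nucleoporins around a centre filled with phenylalanine-glycine (FG) repeat nucleoporins, with filaments on the cytoplasmic face and a basket on the nuclear face. Importins bind cargo in the cytoplasm and release it in the nucleus when they meet RAN loaded with GTP, while exportins bind cargo together with RAN-GTP and release it in the cytoplasm after GTP hydrolysis. Every nucleated cell, the kidney tubule cell included, moves its transcription factors, ribosomal subunits and messenger RNA through this route.

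Tests are two-sided limma tests on log2 values, and a gene is written as higher, lower, risen or fallen only where its p-value, adjusted by the Benjamini-Hochberg procedure over all 10574 genes, was under 0.05. Kbr changed a large share of the transcriptome: 32.4% of the tested genes differed from control at 24 h and 59.6% at 48 h, or 48.0% and 69.4% in a fit that took replicate numbers as blocks (the replicate block). Of the proximal tubule markers, DPP4, SLC3A1, GATM, CDH6 and PAX8 were over the filter, but 8 of the 13 with a probe set were not, the defining genes LRP2, CUBN, AQP1, SLC34A1 and ANPEP among them. All 5 epithelial markers were over the filter, and none of 4 leukocyte markers and 1 podocyte marker, and 1 of 5 endothelial markers (TEK), were. Of 4 fibroblast markers, COL1A1, LUM and DCN were over the filter and lower with Kbr at both times, and the log2 of their summed signal ran from 12.4 to 12.9 in control and 11.4 to 11.8 in Kbr arrays at 24 h, and was 12.3 in each control array and 10.2 to 10.6 in Kbr arrays at 48 h. Of the 5 epithelial markers 2 were lower at 24 h, and 4 were lower and 1 higher at 48 h. Their summed signal ran from 14.6 to 14.9 in control and 14.2 to 14.4 in Kbr arrays at 24 h, and from 14.5 to 14.8 and 14.1 to 14.3 at 48 h. Of the 5 tubule markers over the filter 3 were lower and 1 higher at 24 h, and 4 were lower and 1 higher at 48 h, and their summed signal ran from 13.4 to 13.7 in control and 12.8 to 13.1 in Kbr arrays at 24 h, and from 13.5 to 13.9 and 12.4 to 12.6 at 48 h. The part of these markers in the results on transport genes was not tested. Kbr 48 h replicate 3 lay farthest from its group, with a root mean square deviation of 0.290 over all tested genes against 0.164 to 0.228 for the other arrays, and of 0.175 over the transport genes against 0.107 to 0.165.

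The promoters of 6 genes are shown: NUP35, NUP155, KPNA1 and XPOT are among those that rose most at 48 h, and TPR and IPO9 among those that fell most. They were not picked by rank alone, since NUP153 and RANBP2 rose more than KPNA1 and NUP210 fell more than TPR. The window of NUP153 held no match to any motif searched, while those of RANBP2 and NUP210 held matches. Each promoter shown is 300 bases of RefSeq sequence on GRCh38.p14, from 250 bases before the annotated start to the first 50 bases after it, in the direction of the gene. The 6 lie at NUP35 (chr2:183124193-183124492, plus strand), NUP155 (chr5:37371057-37371356, minus strand), KPNA1 (chr3:122514890-122515189, minus strand), XPOT (chr12:64404142-64404441, plus strand), TPR (chr1:186375204-186375503, minus strand) and IPO9 (chr1:201828907-201829206, plus strand). Capitals mark matches on either strand to the motifs listed after the sequences, merged where matches overlap.
NUP35: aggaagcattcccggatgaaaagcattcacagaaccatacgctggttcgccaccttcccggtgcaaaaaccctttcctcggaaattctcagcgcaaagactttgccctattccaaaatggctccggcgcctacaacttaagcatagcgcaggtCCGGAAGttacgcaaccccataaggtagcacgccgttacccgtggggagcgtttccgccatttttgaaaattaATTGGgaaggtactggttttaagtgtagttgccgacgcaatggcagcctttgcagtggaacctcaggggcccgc
NUP155: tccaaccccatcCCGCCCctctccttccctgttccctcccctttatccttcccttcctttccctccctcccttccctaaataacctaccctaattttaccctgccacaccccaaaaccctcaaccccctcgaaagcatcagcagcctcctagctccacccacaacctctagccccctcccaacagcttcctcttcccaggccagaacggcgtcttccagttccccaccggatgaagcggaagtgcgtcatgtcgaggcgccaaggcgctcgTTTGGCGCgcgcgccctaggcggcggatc
KPNA1: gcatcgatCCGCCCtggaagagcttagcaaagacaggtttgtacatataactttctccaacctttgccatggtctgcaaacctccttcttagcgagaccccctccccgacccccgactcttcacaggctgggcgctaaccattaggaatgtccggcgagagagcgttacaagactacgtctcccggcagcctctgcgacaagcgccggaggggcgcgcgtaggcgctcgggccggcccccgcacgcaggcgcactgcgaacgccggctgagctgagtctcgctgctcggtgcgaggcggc
XPOT: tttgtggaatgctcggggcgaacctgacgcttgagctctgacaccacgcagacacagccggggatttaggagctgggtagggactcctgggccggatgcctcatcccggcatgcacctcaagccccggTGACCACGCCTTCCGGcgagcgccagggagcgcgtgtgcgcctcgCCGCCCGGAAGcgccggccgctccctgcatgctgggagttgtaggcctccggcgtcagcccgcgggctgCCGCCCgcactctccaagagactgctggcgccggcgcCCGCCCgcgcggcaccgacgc
TPR: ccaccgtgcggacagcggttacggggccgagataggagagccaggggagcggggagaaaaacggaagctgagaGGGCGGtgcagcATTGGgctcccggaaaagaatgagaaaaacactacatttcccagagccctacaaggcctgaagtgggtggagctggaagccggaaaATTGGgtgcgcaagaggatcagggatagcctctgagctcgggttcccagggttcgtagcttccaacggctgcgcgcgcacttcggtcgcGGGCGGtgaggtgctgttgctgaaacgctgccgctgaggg
IPO9: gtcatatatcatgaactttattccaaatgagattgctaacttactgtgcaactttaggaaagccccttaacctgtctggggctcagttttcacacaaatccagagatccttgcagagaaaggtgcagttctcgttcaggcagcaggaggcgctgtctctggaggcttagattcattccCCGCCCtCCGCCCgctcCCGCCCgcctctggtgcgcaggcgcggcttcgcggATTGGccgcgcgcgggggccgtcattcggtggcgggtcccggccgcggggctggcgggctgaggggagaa

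A window was listed for 42 of the 47 genes and not for NUP43, RANBP1, KPNA4, KPNB1 or XPO7, and the same search was run on 15843 windows of protein-coding genes. The CCAAT box (CCAAT) was in 20 of the 42 windows (47.6%, against 36.4% of all windows), among them 2 matches in TPR and 1 each in NUP35 and IPO9. The GC box (GGGCGG) was in 22 (52.4% against 58.5%), with 3 matches each in XPOT and IPO9, 2 in TPR and 1 each in NUP155 and KPNA1. The ETS site (CCGGAAG) was in 13 (31% against 14.2%), with 1 match in NUP35 and 2 in XPOT, 1 of which overlaps a GC box while the other directly follows the antioxidant response element core. The antioxidant response element core (TGACNNNGC) was in 11 (26.2% against 14.3%), XPOT included, the E-box (CACGTG) in 6 (14.3% against 8.88%), and the NRF1 site in 3 (7.14% against 1.75%). The E2F site was searched in the forms TTTCGCGC, found in 2 windows (4.76% against 0.814%), and TTTGGCGC, found in that of NUP155 alone (2.38% against 0.89%). The cyclic AMP response element (TGACGTCA) was in 3 (7.14% against 2.59%), the heat shock element units (GAANNTTC) in 2 (4.76% against 5.56%) and the TATA box (TATAAA) in 2 (4.76% against 9.63%). The median GC content of the 42 windows was 63.2%, and that of all windows 62.7%. These matches describe the letters only, and no test was made of them.

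At 24 h, 16 of the 46 transport genes were higher with Kbr and 3 were lower, that is 34.8% and 6.52% of them, where 12.4% of all tested genes were higher and 20.0% lower. At 48 h, 27 were higher and 5 lower, or 58.7% and 10.9%, where 26.9% of all tested genes were higher and 32.8% lower. The median log2 fold change of the transport genes was 0.26 at 24 h and 0.39 at 48 h, and that of all tested genes was -0.06 at both times. The changes were small: no transport gene reached a 2-fold change at 24 h, and 4 did at 48 h (NUP155, KPNA4, NUP153 and NUP35). Of the genes that were higher at 24 h, 15 were also higher at 48 h, KPNA3 was higher at 24 h only, and 12 were higher at 48 h only. TPR and IPO9 were lower at both times, and NUP210 and IPO8 at 48 h only. NUP214 was lower at both times by the chosen probe set, but its other probe set was higher at both, and with averaged probe sets the lower genes were 2 at 24 h and 4 at 48 h. The 24 h and 48 h comparisons have no array in common, but same-numbered arrays of different groups deviated together (correlations of 0.232 to 0.633). The absolute change was larger at 48 h in 37 of the 46 genes. No share of all tested genes is given for that count, and 32.4% of them were called at 24 h and 59.6% at 48 h. In 20 genes all 3 Kbr arrays lay above all 3 controls at 24 h and in 4 all lay below, where 22.4% and 29.2% of all tested genes did; at 48 h the numbers were 29 and 5, where 28.6% and 34.2% of all tested genes did. The count of genes higher at 24 h fell when some single arrays were left out. It was 9 without Kbr 24 h replicate 1, and 10 without either Kbr 24 h replicate 2 or control 24 h replicate 1. The median log2 fold change of the transport genes was then 0.24, 0.25 and 0.22. These fits use fewer arrays, and no share of all tested genes is given for them. Under the replicate block, the genes lower at 24 h were 5 rather than 3 (29.4% of all tested genes were then lower), NUP85 and NUP210 being added. At 48 h the block gave 31 higher and 6 lower, where 31.3% and 38.1% of all tested genes were, and at 24 h it gave 23 higher, where 18.6% were.

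**Figure D1:**
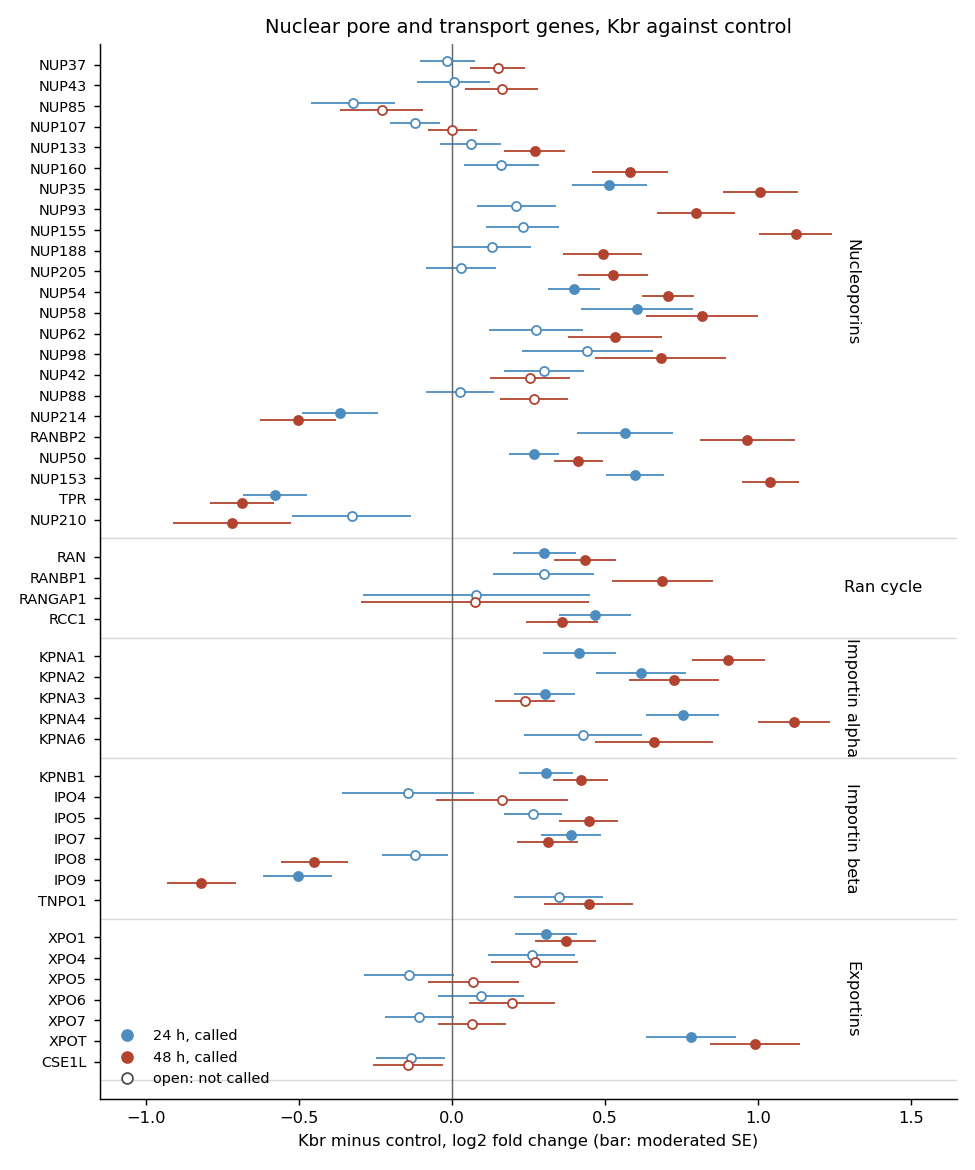
Log2 fold change, Kbr minus control, of the 46 tested transport genes at 24 h (blue) and 48 h (red), with bars for the moderated standard error of limma and filled points for an adjusted p under 0.05. Most points lie to the right of 0 and most red points lie farther from it than the blue ones, while NUP214, TPR, NUP210, IPO8 and IPO9 lie to the left.

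The inner ring, the scaffold that holds the pore to its membrane and carries the central channel, had all of its members higher with Kbr at 48 h. The 5 members (NUP35, NUP93, NUP155, NUP188 and NUP205) then had a median log2 fold change of 0.80, and at 24 h NUP35 alone was called, with a median of 0.21 over the group. Of all tested genes 26.9% were higher at 48 h and 12.4% at 24 h. From 24 h to 48 h the median change of the 5 was -0.41 in controls, with 2 called lower, where 2.30% of all tested genes were. It was 0.16 with Kbr, with none called, where 7.12% of all tested genes rose and 10.0% fell. NUP155, a large scaffold protein of this ring, read 9.61, 9.41 and 9.71 in the control arrays and 9.94, 9.79 and 9.69 with Kbr at 24 h. At 48 h it read 8.79, 8.90 and 9.13 in the control arrays and 10.15, 10.01 and 10.01 with Kbr. The groups overlapped at 24 h and stood well apart at 48 h. The log2 fold change of NUP155 was 0.23 (SE 0.12, adjusted p = 0.16) at 24 h and 1.12 (SE 0.12, adjusted p = 1.83e-05) at 48 h, a 2.18-fold higher level. NUP35, which contacts the pore membrane, read 10.15, 10.42 and 10.42 in the control arrays and 10.82, 10.92 and 10.80 with Kbr at 24 h. At 48 h NUP35 read 9.90, 10.28 and 10.23 in the control arrays and 11.06, 11.27 and 11.10 with Kbr. Every Kbr array of NUP35 was above every control array of its time. NUP35 differed from control by a log2 change of 0.51 (SE 0.12, adjusted p = 0.00915) at 24 h and 1.01 (SE 0.12, adjusted p = 4.55e-05) at 48 h.

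NUP93, the linker between the ring and the FG nucleoporins of the channel, read 10.29, 10.24 and 10.45 in the control arrays and 10.47, 10.54 and 10.59 with Kbr at 24 h. At 48 h NUP93 read 9.53, 9.76 and 10.00 in the control arrays and 10.41, 10.55 and 10.72 with Kbr. All Kbr arrays of NUP93 were above the controls at both times, with a log2 change of 0.21 (SE 0.13, adjusted p = 0.237) at 24 h and 0.80 (SE 0.13, adjusted p = 0.000319) at 48 h. NUP205, another large scaffold protein, read 10.14, 10.30 and 10.36 in the control arrays and 10.23, 10.40 and 10.26 with Kbr at 24 h, where the groups overlapped. At 48 h NUP205 read 9.70, 9.97 and 10.12 in the control arrays and 10.44, 10.45 and 10.47 with Kbr, where they did not. The log2 fold change of NUP205 was 0.03 (SE 0.12, adjusted p = 0.873) and 0.53 (SE 0.12, adjusted p = 0.00235). NUP188, the partner of NUP93 in place of NUP205, had 0.13 (SE 0.13, adjusted p = 0.466) and 0.49 (SE 0.13, adjusted p = 0.00678).

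The FG nucleoporins of the channel form the barrier that receptors pass through, and all 4 (NUP54, NUP58, NUP62 and NUP98) were higher with Kbr at 48 h, with a median log2 fold change of 0.69. Of all tested genes 26.9% were higher at that time. From 24 h to 48 h the median change of the 4 was -0.29 in controls, with 1 called lower, where 2.30% of all tested genes were. It was -0.02 with Kbr, with none called, where 7.12% of all tested genes rose and 10.0% fell. At 24 h NUP54 and NUP58 were higher with Kbr than in control, where 12.4% of all tested genes were. NUP58 read 8.35, 7.89 and 8.39 in the control arrays and 9.06, 8.71 and 8.67 with Kbr at 24 h. At 48 h NUP58 read 7.93, 8.01 and 8.47 in the control arrays and 9.11, 8.86 and 8.89 with Kbr. Its Kbr arrays were all above the controls at each time, although the controls spread over a wide range. The log2 fold change of NUP58 was 0.60 (SE 0.18, adjusted p = 0.0267) at 24 h and 0.82 (SE 0.18, adjusted p = 0.00262) at 48 h. NUP58 lost its 24 h call on leaving out either Kbr 24 h replicate 1, or control 24 h replicate 2 (0.48 and 0.44, adjusted p = 0.101 and 0.0968). NUP54, which pairs with NUP58 and NUP62 in the channel, had 0.40 (SE 0.08, adjusted p = 0.00533) at 24 h and 0.70 (SE 0.08, adjusted p = 4.25e-05) at 48 h. NUP62, which gives this complex its name, had 0.27 (SE 0.15, adjusted p = 0.193) and 0.53 (SE 0.15, adjusted p = 0.0113), and was also higher at 24 h with the replicate block (adjusted p = 0.0254). NUP98, an FG nucleoporin that also binds the messenger RNA export factor RAE1, had 0.44 (SE 0.21, adjusted p = 0.138) and 0.68 (SE 0.21, adjusted p = 0.0176). NUP98 lost its 48 h call on leaving out any 1 of Kbr 48 h replicate 3, or control 48 h replicates 1 or 2 (0.51 to 0.62, adjusted p = 0.0563 to 0.0757). Under the replicate block NUP98 was also higher at 24 h (adjusted p = 0.0206).

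On the nuclear basket, where cargo leaves or joins the pore on the nuclear side, NUP50 and NUP153 were higher and TPR lower with Kbr at both times. NUP153, which anchors the basket, read 10.72, 10.69 and 10.86 in the control arrays and 11.47, 11.27 and 11.32 with Kbr at 24 h. At 48 h NUP153 read 10.44, 10.40 and 10.56 in the control arrays and 11.59, 11.49 and 11.45 with Kbr. The lowest Kbr array of NUP153 was above the highest control by a wide margin at each time. NUP153 differed from control by a log2 change of 0.60 (SE 0.09, adjusted p = 0.0011) at 24 h and 1.04 (SE 0.09, adjusted p = 6.74e-06) at 48 h, a 2.06-fold higher level. TPR, the coiled-coil protein that makes up the basket filaments, read 10.45, 10.62 and 10.51 in the control arrays and 9.90, 10.01 and 9.93 with Kbr at 24 h. At 48 h TPR read 10.50, 10.68 and 10.49 in the control arrays and 9.84, 10.04 and 9.73 with Kbr. Here every Kbr array was below every control, and the controls of both times overlapped. The log2 fold change of TPR was -0.58 (SE 0.10, adjusted p = 0.00229) at 24 h and -0.69 (SE 0.10, adjusted p = 0.000216) at 48 h, or 0.622 of the control level. NUP50, which helps importins let go of their cargo, had 0.27 (SE 0.08, adjusted p = 0.0267) and 0.41 (SE 0.08, adjusted p = 0.00117). NUP50 lost its 24 h call on leaving out any 1 of Kbr 24 h replicates 1, 2 or 3, or control 24 h replicates 1, 2 or 3 (0.24 to 0.29, adjusted p = 0.0504 to 0.0884).

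On the cytoplasmic face, RANBP2 was higher at both times and NUP214 lower by the chosen probe set, while NUP42 and NUP88 were not called. RANBP2, the filament protein that holds SUMO-modified RANGAP1 at the pore, read 10.52, 10.66 and 10.86 in the control arrays and 11.24, 11.40 and 11.10 with Kbr at 24 h. At 48 h RANBP2 read 10.42, 10.88 and 10.64 in the control arrays and 11.80, 11.68 and 11.35 with Kbr. All Kbr arrays of RANBP2 were above the controls of their time. The Kbr effect on RANBP2 was a log2 change of 0.57 (SE 0.16, adjusted p = 0.018) at 24 h and 0.96 (SE 0.16, adjusted p = 0.000321) at 48 h. RANBP2 lost its 24 h call on leaving out either Kbr 24 h replicate 2, or control 24 h replicate 1 (0.49 and 0.49, adjusted p = 0.0681 and 0.0741). The genome holds near-identical RGPD copies of RANBP2, and although a probe set annotated to them as well was not used, its values are uncertain for that reason. NUP214, the docking site for messenger RNA export, had -0.37 (SE 0.12, adjusted p = 0.0427) at 24 h and -0.50 (SE 0.12, adjusted p = 0.00476) at 48 h by the chosen probe set. NUP214 lost its 24 h call on leaving out any 1 of Kbr 24 h replicates 1, 2 or 3, Kbr 48 h replicate 2, control 24 h replicates 1 or 3, or control 48 h replicates 1, 2 or 3 (-0.41 to -0.27, adjusted p = 0.0533 to 0.163). The other probe set of this gene went the other way at both times (log2 fold change 1.32 at 24 h and 1.95 at 48 h). NUP88, the partner of NUP214, had 0.03 (SE 0.11, adjusted p = 0.882) and 0.27 (SE 0.11, adjusted p = 0.0582), and NUP42, which activates the export helicase, had 0.30 (SE 0.13, adjusted p = 0.101) and 0.26 (SE 0.13, adjusted p = 0.115). NUP42 was, under the replicate block, higher at both times (adjusted p = 0.00392 and 0.00493) and NUP88 at 48 h (adjusted p = 0.0217).

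The Y complex is the outer ring scaffold on both faces of the pore, and 6 of its genes belong to the set. None of these 6 was called at 24 h by limma, where 12.4% of all tested genes were higher and 20.0% lower. At that time 1 was lower at an unadjusted p under 0.05, and 1 with the replicate block. Of all 10574 tested genes, 2813 and 3109 were. By the chosen probe sets 2 were higher at 48 h, NUP160 and NUP133, or 33.3%, where 26.9% of all tested genes were. The median log2 fold change over the 6 was 0.16 at 48 h. SEH1L, SEC13 and AHCTF1, which are also counted to this complex, were listed among the other pathway genes, and SEH1L and SEC13 are named after their values were seen. SEH1L was higher at both times, with 0.39 (SE 0.12, adjusted p = 0.0342) and 0.49 (SE 0.12, adjusted p = 0.00551), as was AHCTF1 (0.89 and 1.31), while SEC13 had 0.13 (SE 0.13, adjusted p = 0.455) and 0.29 (SE 0.13, adjusted p = 0.0691). NUP43, a small propeller protein of the complex, read 10.94, 10.94 and 10.67 in the control arrays and 10.80, 10.98 and 10.78 with Kbr at 24 h. At 48 h NUP43 read 10.91, 11.00 and 10.97 in the control arrays and 11.27, 11.19 and 10.91 with Kbr. NUP107 read 10.97, 11.06 and 11.06 in the control arrays and 11.00, 10.86 and 10.87 with Kbr at 24 h. At 48 h NUP107 read 10.80, 10.69 and 10.76 in the control arrays and 10.79, 10.74 and 10.73 with Kbr. The groups of NUP43 and of NUP107 overlapped at both times. NUP43 had a log2 change of 0.01 (SE 0.12, adjusted p = 0.977) and 0.16 (SE 0.12, adjusted p = 0.264), and NUP107 had -0.12 (SE 0.08, adjusted p = 0.277) and 0.00 (SE 0.08, adjusted p = 0.986). NUP160 had 0.58 (SE 0.12, adjusted p = 0.00196) at 48 h, and NUP133, the member that contacts the membrane, had 0.27 (SE 0.10, adjusted p = 0.0362). NUP133 lost its 48 h call on leaving out any 1 of Kbr 48 h replicates 1 or 2, or control 48 h replicates 2 or 3 (0.19 to 0.28, adjusted p = 0.0649 to 0.133). NUP37 had -0.01 (SE 0.09, adjusted p = 0.919) and 0.15 (SE 0.09, adjusted p = 0.176) by the chosen probe set. Its other probe set had 0.48 (SE 0.25, adjusted p = 0.19) at 24 h and was higher at 48 h (0.72, SE 0.25, adjusted p = 0.0317). These 2 p-values were adjusted over all probe sets tested. NUP85 had -0.32 (SE 0.14, adjusted p = 0.0917) and -0.23 (SE 0.14, adjusted p = 0.168), and was lower at both times with the replicate block (adjusted p = 0.00445 and 0.0138). NUP210, a glycoprotein of the pore membrane, had -0.33 (SE 0.19, adjusted p = 0.218) at 24 h and -0.72 (SE 0.19, adjusted p = 0.00789) at 48 h, and was lower at 24 h too with the replicate block (adjusted p = 0.0172).

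In the RAN cycle, RCC1 and RAN were higher with Kbr at both times, RANBP1 at 48 h, and RANGAP1 at neither. RCC1, the exchange factor that loads RAN with GTP on chromatin, read 9.73, 9.46 and 9.70 in the control arrays and 10.13, 9.98 and 10.19 with Kbr at 24 h. At 48 h RCC1 read 9.45, 9.23 and 9.41 in the control arrays and 9.72, 9.57 and 9.87 with Kbr. Its Kbr arrays were above all controls of their time. The log2 fold change of RCC1 was 0.47 (SE 0.12, adjusted p = 0.0115) at 24 h and 0.36 (SE 0.12, adjusted p = 0.0202) at 48 h. RCC1 lost its 48 h call on leaving out either Kbr 48 h replicate 3, or control 48 h replicate 2 (0.28 and 0.29, adjusted p = 0.0666 and 0.0767). RANBP1, which helps RANGAP1 take RAN off exported complexes, read 12.83, 12.92 and 13.20 in the control arrays and 13.14, 13.30 and 13.41 with Kbr at 24 h. At 48 h RANBP1 read 12.19, 12.40 and 12.68 in the control arrays and 12.88, 13.07 and 13.38 with Kbr. The groups of RANBP1 overlapped at 24 h and not at 48 h, with 0.30 (SE 0.16, adjusted p = 0.185) and 0.69 (SE 0.16, adjusted p = 0.00399). Replicate 3 was the highest of its group in all 4 groups, and with the replicate block RANBP1 was also higher at 24 h (adjusted p = 0.00801). RANGAP1, the protein that triggers GTP hydrolysis in the cytoplasm, read 9.51, 8.78 and 9.98 in the control arrays and 9.62, 8.96 and 9.93 with Kbr at 24 h. At 48 h RANGAP1 read 9.01, 8.27 and 9.24 in the control arrays and 8.93, 8.43 and 9.38 with Kbr. Replicate 2 of RANGAP1 was the lowest of each group by a wide gap, and the Kbr and control groups overlapped at both times. RANGAP1 differed from control by a log2 change of 0.08 (SE 0.37, adjusted p = 0.893) and 0.08 (SE 0.37, adjusted p = 0.872), and with the replicate block the adjusted p was 0.431 and 0.411. RAN itself had 0.30 (SE 0.10, adjusted p = 0.0431) and 0.43 (SE 0.10, adjusted p = 0.00363). RAN lost its 24 h call on leaving out any 1 of Kbr 24 h replicates 1, 2 or 3, Kbr 48 h replicate 2, control 24 h replicates 1 or 2, or control 48 h replicates 2 or 3 (0.23 to 0.35, adjusted p = 0.0528 to 0.162).

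The importin alphas, the adaptors that recognise classical nuclear localisation signals, had the highest median change of the classes at both times: 0.43 at 24 h, when 4 of 5 were higher, and 0.73 at 48 h, when again 4 of 5 were higher. Of all tested genes 12.4% were higher at 24 h and 26.9% at 48 h. KPNA4 read 11.67, 11.72 and 12.09 in the control arrays and 12.68, 12.57 and 12.50 with Kbr at 24 h. At 48 h KPNA4 read 11.67, 11.79 and 11.77 in the control arrays and 12.92, 12.91 and 12.76 with Kbr. The Kbr arrays of KPNA4 stood clear of the controls at both times. The Kbr effect on KPNA4 was a log2 change of 0.75 (SE 0.12, adjusted p = 0.0011) at 24 h and 1.12 (SE 0.12, adjusted p = 1.82e-05) at 48 h, or 1.69-fold and 2.17-fold. KPNA1 read 9.83, 9.60 and 9.60 in the control arrays and 10.26, 10.0 and 10.01 with Kbr at 24 h. At 48 h KPNA1 read 9.68, 9.45 and 9.60 in the control arrays and 10.51, 10.32 and 10.62 with Kbr. The groups did not overlap, and the log2 fold change of KPNA1 was 0.42 (SE 0.12, adjusted p = 0.0218) at 24 h and 0.90 (SE 0.12, adjusted p = 8.13e-05) at 48 h. KPNA1 lost its 24 h call on leaving out any 1 of Kbr 24 h replicate 1, or control 24 h replicates 2 or 3 (0.33 to 0.38, adjusted p = 0.0631 to 0.0863). KPNA2, the adaptor best known from dividing cells, read 13.52, 13.49 and 13.75 in the control arrays and 14.23, 14.12 and 14.25 with Kbr at 24 h. At 48 h KPNA2 read 12.93, 13.12 and 13.27 in the control arrays and 13.59, 13.77 and 14.14 with Kbr. Kbr and control arrays of KPNA2 were apart at each time. The Kbr effect on KPNA2 was a log2 change of 0.62 (SE 0.15, adjusted p = 0.0092) and 0.73 (SE 0.15, adjusted p = 0.00145).

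KPNA3, the closest relative of KPNA4, read 10.53, 10.48 and 10.69 in the control arrays and 10.98, 10.80 and 10.83 with Kbr at 24 h. At 48 h KPNA3 read 10.29, 10.34 and 10.36 in the control arrays and 10.47, 10.52 and 10.71 with Kbr, and the groups did not overlap. KPNA3 had the smallest change of the class, with 0.30 (SE 0.10, adjusted p = 0.0379) at 24 h and 0.24 (SE 0.10, adjusted p = 0.0581) at 48 h. Its 24 h call was lost on leaving out any 1 of Kbr 24 h replicates 1, 2 or 3, Kbr 48 h replicate 2, control 24 h replicates 1 or 2, or control 48 h replicate 2 (0.25 to 0.34, adjusted p = 0.05 to 0.13). Under the replicate block it was higher at 48 h as well (adjusted p = 0.0316). KPNA6 had 0.43 (SE 0.19, adjusted p = 0.114) at 24 h and 0.66 (SE 0.19, adjusted p = 0.0124) at 48 h. KPNA6 lost its 48 h call on leaving out Kbr 48 h replicate 1 (0.54, adjusted p = 0.0512). KPNA6 was, under the replicate block, also higher at 24 h (adjusted p = 0.00221).

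**Figure D2:**
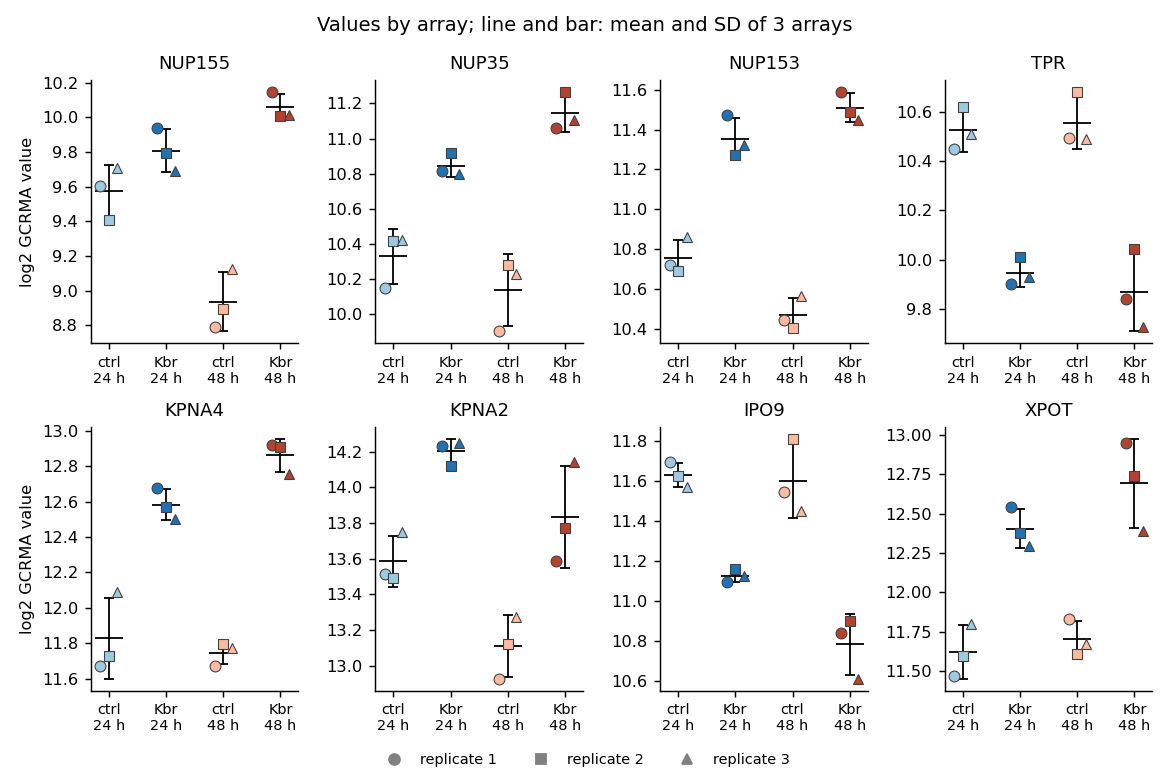
Log2 values of 8 transport genes on each array (light points control, dark points Kbr, blue 24 h, red 48 h, shapes for the replicate number), with the mean and SD of 3 arrays; the vertical axes differ between panels and do not start at 0. The Kbr arrays lie above the controls of their time in NUP35, NUP153, KPNA4, KPNA2 and XPOT, below them in TPR and IPO9, and for NUP155 apart from them at 48 h only.

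The importin betas carry cargo through the pore, and they split in direction. At 24 h KPNB1 and IPO7 were higher and IPO9 lower among 7 tested, and at 48 h KPNB1, IPO5, IPO7 and TNPO1 were higher and IPO8 and IPO9 lower. The shares higher and lower were 28.6% and 14.3% at 24 h, where 12.4% and 20.0% of all tested genes were. At 48 h they were 57.1% and 28.6%, where 26.9% and 32.8% of all tested genes were. IPO9, a carrier of histones, read 11.70, 11.62 and 11.57 in the control arrays and 11.10, 11.16 and 11.13 with Kbr at 24 h. At 48 h IPO9 read 11.54, 11.81 and 11.45 in the control arrays and 10.84, 10.90 and 10.61 with Kbr. Every Kbr array of IPO9 was below every control of its time. The log2 fold change of IPO9 was -0.50 (SE 0.11, adjusted p = 0.00677) at 24 h and -0.82 (SE 0.11, adjusted p = 0.000109) at 48 h, the largest fall of any transport gene at 48 h. IPO8, the closest relative of IPO7, read 9.87, 10.0 and 9.76 in the control arrays and 9.79, 9.85 and 9.63 with Kbr at 24 h. At 48 h IPO8 read 10.08, 10.09 and 9.84 in the control arrays and 9.58, 9.63 and 9.47 with Kbr. Its groups overlapped at 24 h and were apart at 48 h, with -0.12 (SE 0.11, adjusted p = 0.419) and -0.45 (SE 0.11, adjusted p = 0.00409). IPO7 itself, an importer of ribosomal proteins, went the other way, with 0.39 (SE 0.10, adjusted p = 0.0127) and 0.31 (SE 0.10, adjusted p = 0.0184). The IPO7 call was lost at 24 h on leaving out Kbr 24 h replicate 2 (0.34, adjusted p = 0.0534) and at 48 h on leaving out either Kbr 48 h replicate 2, or control 48 h replicate 3 (0.28 and 0.24, adjusted p = 0.064 and 0.0746).

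KPNB1, the importin that carries the importin alphas with their cargo, had 0.31 (SE 0.09, adjusted p = 0.0223) at 24 h and 0.42 (SE 0.09, adjusted p = 0.00185) at 48 h. KPNB1 lost its 24 h call on leaving out any 1 of Kbr 24 h replicates 1 or 3, or control 24 h replicates 1 or 2 (0.24 to 0.31, adjusted p = 0.0585 to 0.085). IPO5, another importer of ribosomal proteins, had 0.26 (SE 0.10, adjusted p = 0.0554) and 0.45 (SE 0.10, adjusted p = 0.00204), and with the replicate block was higher at 24 h as well (adjusted p = 0.0102). TNPO1, the importer of RNA-binding proteins, had 0.35 (SE 0.14, adjusted p = 0.089) and 0.45 (SE 0.14, adjusted p = 0.0204) by the chosen probe set. The TNPO1 call at 48 h was lost on leaving out any 1 of Kbr 48 h replicate 2, or control 48 h replicates 1 or 3 (0.37 to 0.42, adjusted p = 0.0573 to 0.0776). Under the replicate block TNPO1 was higher at 24 h as well (adjusted p = 0.00306). The other probe sets of TNPO1 over the filter were each higher at both times. IPO4, which imports histones and ribosomal proteins, read 8.81, 8.35 and 9.08 in the control arrays and 8.66, 8.26 and 8.87 with Kbr at 24 h. At 48 h IPO4 read 8.24, 8.05 and 8.31 in the control arrays and 8.51, 8.02 and 8.56 with Kbr, with overlapping groups. The Kbr effect on IPO4 was a log2 change of -0.14 (SE 0.22, adjusted p = 0.644) and 0.16 (SE 0.22, adjusted p = 0.537). IPO11, the member that was not tested, read 2.41 to 2.47 over the 12 arrays, and its other probe sets are shared with a neighbouring gene and were not used.

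Among the exportins XPOT and XPO1 were higher with Kbr at both times, and the other 5 were called at neither time by the chosen probe sets. The share higher was thus 28.6% at each time, where 12.4% of all tested genes were at 24 h and 26.9% at 48 h. At 48 h the other probe set of XPO4 was higher (1.32, SE 0.35, adjusted p = 0.00789), as was that of XPO6 (0.38, SE 0.11, adjusted p = 0.0158). These p-values were adjusted over all probe sets tested. No probe set of XPO5, XPO7 or CSE1L was called at either time. XPOT, the exporter of transfer RNA, read 11.47, 11.60 and 11.80 in the control arrays and 12.54, 12.38 and 12.30 with Kbr at 24 h. At 48 h XPOT read 11.83, 11.61 and 11.67 in the control arrays and 12.95, 12.74 and 12.39 with Kbr. All Kbr arrays of XPOT were above the controls, with Kbr 48 h replicate 3 the lowest of its group. By the chosen probe set, XPOT differed from control by a log2 change of 0.78 (SE 0.15, adjusted p = 0.00281) at 24 h and 0.99 (SE 0.15, adjusted p = 0.000183) at 48 h. The 24 h change was the largest of all transport genes at that time by the chosen probe sets. The other probe set of XPOT was also higher at both times, but with 0.92 (SE 0.11) at 24 h and a smaller 0.36 (SE 0.11) at 48 h. XPO1, the general exporter of proteins with a leucine-rich signal, had 0.31 (SE 0.10, adjusted p = 0.0375) and 0.37 (SE 0.10, adjusted p = 0.0081). XPO1 lost its 24 h call on leaving out any 1 of Kbr 24 h replicates 1 or 2, or control 24 h replicates 1 or 3 (0.24 to 0.32, adjusted p = 0.0631 to 0.143). XPO6, the exporter of actin, read 9.94, 9.72 and 10.11 in the control arrays and 10.12, 9.85 and 10.09 with Kbr at 24 h. At 48 h XPO6 read 9.64, 9.41 and 9.82 in the control arrays and 9.90, 9.66 and 9.90 with Kbr. The groups of XPO6 overlapped, with 0.10 (SE 0.14, adjusted p = 0.638) and 0.20 (SE 0.14, adjusted p = 0.255), and with the replicate block it was higher at 48 h (adjusted p = 0.031). XPO7 read 9.89, 9.98 and 9.93 in the control arrays and 9.75, 9.93 and 9.79 with Kbr at 24 h. At 48 h XPO7 read 9.81, 9.64 and 9.75 in the control arrays and 9.56, 9.89 and 9.94 with Kbr, again overlapping, with -0.11 (SE 0.11, adjusted p = 0.496) and 0.07 (SE 0.11, adjusted p = 0.636). XPO5, the exporter of microRNA precursors, had -0.14 (SE 0.15, adjusted p = 0.495) and 0.07 (SE 0.15, adjusted p = 0.703), and XPO4 had 0.26 (SE 0.14, adjusted p = 0.183) and 0.27 (SE 0.14, adjusted p = 0.124). CSE1L, which returns importin alphas to the cytoplasm, had -0.13 (SE 0.11, adjusted p = 0.389) and -0.14 (SE 0.11, adjusted p = 0.299), and was called at neither time.

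Set side by side, 8 of 19 transport receptors and 6 of 23 nucleoporins were higher at 24 h (42.1% and 26.1%), with 1 and 2 lower. At 48 h 10 and 14 were higher (52.6% and 60.9%), with 2 and 3 lower. Of all tested genes, 12.4% were higher and 20.0% lower at 24 h, and 26.9% and 32.8% at 48 h. The median log2 fold change of the receptors was 0.30 at 24 h and 0.31 at 48 h, and that of the nucleoporins was 0.16 and 0.49. Of the receptors 3 were higher at 48 h only and 7 at both times, and of the nucleoporins 8 were higher at 48 h only and 6 at both times. The difference between the classes was not tested. The 24 h counts of higher receptors and nucleoporins were 4 and 4 without Kbr 24 h replicate 1, 5 and 4 without Kbr 24 h replicate 2, and 5 and 4 when control 24 h replicate 1 was left out. A fit of the 24 h groups alone gave 5 and 6. Without Kbr 48 h replicate 3, the array farthest from its group, 13 nucleoporins were higher and 4 lower at 48 h with a median of 0.43, and 11 receptors were higher and 2 lower with a median of 0.38. All these alternative fits use fewer arrays, and no share of all tested genes is given for them.

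The average deviation from the 12-array mean shows where each class stood on every array. Over the 23 nucleoporins it was -0.04, -0.06 and 0.08 in control arrays and 0.15, 0.13 and 0.10 in Kbr arrays at 24 h, and -0.35, -0.25 and -0.14 in control and 0.16, 0.11 and 0.12 in Kbr arrays at 48 h. The Kbr arrays held nearly the same level at both times, while each control array at 48 h lay below each at 24 h. Over the 5 importin alphas it was -0.17, -0.32 and -0.13 in control and 0.45, 0.19 and 0.25 in Kbr arrays at 24 h, and -0.40, -0.45 and -0.37 in control and 0.32, 0.25 and 0.39 in Kbr arrays at 48 h. Importin alphas were apart from the controls on every array of both times. Over the 7 importin betas the Kbr arrays ran from 0.05 to 0.09 at 24 h and from -0.01 to 0.02 at 48 h, and the controls from -0.02 to 0.04 and from -0.13 to -0.03. The exportins overlapped at neither time, but Kbr 48 h replicate 3 (-0.02) was the lowest of its group and the nearest to the controls (-0.23 to -0.12). Over the 4 RAN cycle genes the groups overlapped at 24 h but not at 48 h, where Kbr arrays ran from -0.15 to 0.26 and controls from -0.54 to -0.19, with replicate 3 the highest and replicate 2 the lowest in every group. Over all 10574 genes the average was 0.04 to 0.13 in control and -0.07 to -0.0036 in Kbr arrays at 24 h, and 0.03 to 0.08 in control and -0.13 to -0.05 in Kbr arrays at 48 h.

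**Figure D3:**
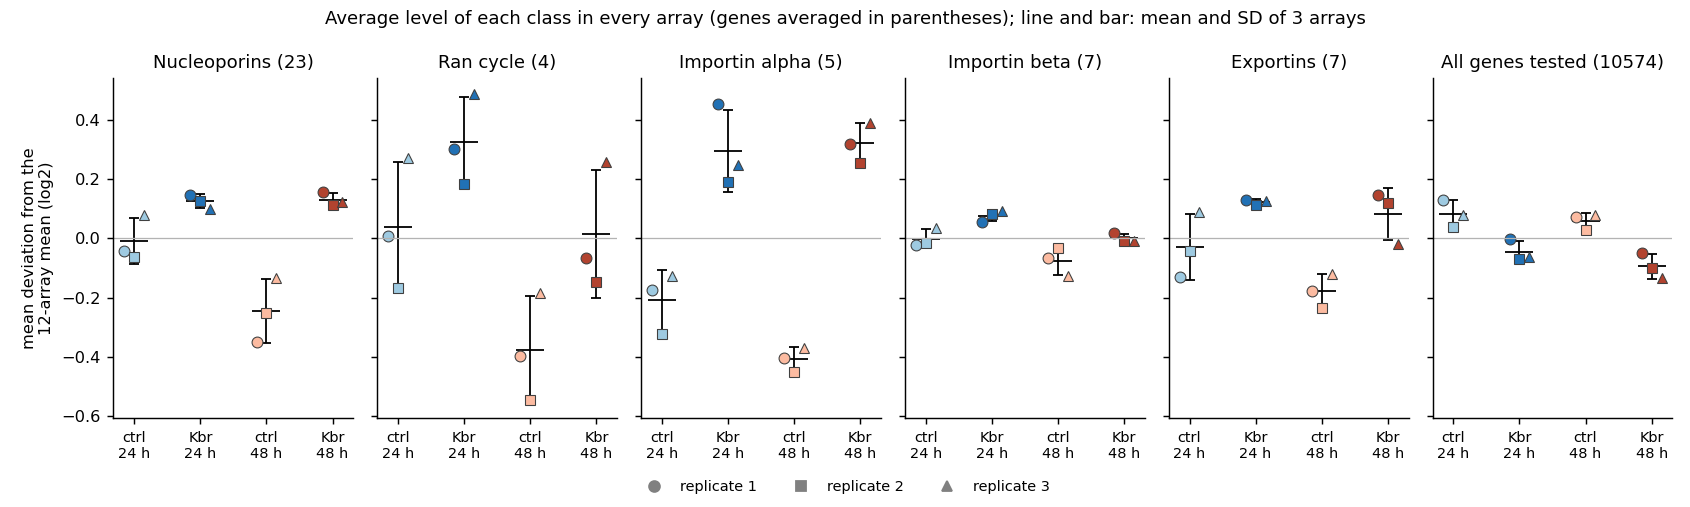
Average deviation from the 12-array mean (log2) of the tested genes of each class, and of all 10574 tested genes, on every array, with the mean and SD of 3 arrays (shapes for the replicate number). Nucleoporins and importin alphas lie higher in each Kbr array than in any control of that time, and the nucleoporin controls at 48 h lie below those at 24 h.

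The change of the Kbr effect with time was tested as the difference between the 48 h and the 24 h fold change, a contrast that uses all 4 groups and so shares arrays with every other comparison here. NUP155 alone was called, with a higher effect at 48 h, where 5.58% of all tested genes were called, 2.09% with a higher and 3.49% with a lower effect. The difference for NUP155 was 0.89 (SE 0.17, adjusted p = 0.019). The difference call of NUP155 was lost on leaving out control 24 h replicate 3 (0.82, adjusted p = 0.0522). No gene of the set had a lower effect (limma, 0 also at an unadjusted p under 0.05), and 8 of 46 had a higher one at an unadjusted p under 0.05. Of all 10574 tested genes, 1243 had a higher and 1342 a lower effect at that unadjusted p. The next largest differences were those of NUP93 (0.59, SE 0.18, adjusted p = 0.0802), NUP205 (0.50, SE 0.16, adjusted p = 0.0945), NUP35 (0.49, SE 0.17, adjusted p = 0.113) and the adaptor KPNA1 (0.49, SE 0.17, adjusted p = 0.109). Under the block 8 genes had a higher effect at 48 h (8.83% of all tested genes did) and 1 a lower one (11.4% did, 20.2% in either direction). The 8 were all 5 inner ring genes (NUP155, adjusted p = 0.00875, NUP93, 0.0126, NUP35, 0.0221, NUP205, 0.0273, and NUP188, 0.0394), NUP153 (0.0281), KPNA1 (0.0234) and RANBP1 (0.0295), and the 1 was IPO8 (0.033). The count of genes with a higher effect fell to 0 when control 24 h replicate 3 was left out and was 2 when either Kbr 48 h replicate 3 or control 48 h replicate 3 was.

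Control cultures were also compared between 24 h and 48 h. In the controls 4 transport genes were lower at 48 h than at 24 h and none was higher, where 4.03% of all tested genes were called, 2.30% lower and 1.73% higher. All 4 are nucleoporins, and no receptor was called. At an unadjusted p under 0.05 (limma), 10 of 23 nucleoporins and 5 of 19 receptors were lower and 1 receptor was higher. Of all 10574 tested genes, 1351 were lower and 967 higher at that unadjusted p. The 4 genes called were NUP155 (-0.64, SE 0.12, adjusted p = 0.0226), NUP62 (-0.62, SE 0.15, adjusted p = 0.0488), NUP93 (-0.56, SE 0.13, adjusted p = 0.0419) and NUP37 (-0.40, SE 0.09, adjusted p = 0.0402). All 3 control arrays at 48 h were below all 3 at 24 h in 20 transport genes and above in 1, where 14.6% and 12.3% of all tested genes were. Under the block 19 transport genes were lower and 1 (IPO7) higher, where 12.2% and 8.62% of all tested genes were, 20.8% in all. The count of lower genes changed when single arrays were left out, in fits that use fewer arrays. It was 0 with control 24 h replicate 1 or 3, or control 48 h replicate 1 or 2, left out. It was 1 with any Kbr 24 h array or Kbr 48 h replicate 2 left out, and 2 with Kbr 48 h replicate 1 or control 24 h replicate 2 left out. Leaving out Kbr 48 h replicate 3 gave 5, and leaving out control 48 h replicate 3 gave 6. The 48 h control arrays enter this comparison as well as that of Kbr with control at 48 h.

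Between 24 h and 48 h of Kbr, 1 transport gene rose and 2 fell, where 17.1% of all tested genes were called, 7.12% rising and 10.0% falling. KPNA1 rose by 0.39 (SE 0.12, adjusted p = 0.0466). CSE1L fell (-0.39, SE 0.11, adjusted p = 0.0382) and so did RCC1 (-0.38, SE 0.12, adjusted p = 0.0486). Over the same time the controls changed by -0.38 for CSE1L, -0.27 for RCC1 and -0.10 for KPNA1 (adjusted p = 0.0827, 0.208 and 0.676). The change of the Kbr effect with time was called for none of these genes (adjusted p = 0.982, 0.742 and 0.109). No nucleoporin was called in this comparison by limma, and NUP155 had 0.25 (SE 0.12, adjusted p = 0.169). At an unadjusted p under 0.05, 4 of 23 nucleoporins were higher and 3 lower, where 1534 and 1910 of all 10574 tested genes were. The Kbr arrays at 48 h were all above those at 24 h in 7 transport genes and all below in 10, where 14.7% and 19.8% of all tested genes were. Under the block 3 rose and 10 fell, where 14.2% and 19.6% of all tested genes did, 33.8% in all. The count of genes that rose was 5 without Kbr 48 h replicate 3, 1 when either Kbr 24 h replicate 1 or control 24 h replicate 1 was left out, and 0 for any 1 of the other arrays. Leaving out Kbr 48 h replicate 3 gave 4 that fell, leaving out control 48 h replicate 2 gave 2, any other Kbr array 0 and any other control array 1.

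The deposited table holds several probe sets for 35 of the 46 tested genes, 110 in all over the filter, and their agreement bears on each value above. Every probe set of a gene had the same sign in 29 of the 35 genes at 24 h and in 32 at 48 h. Probe sets of a gene lay more than 1 log2 unit apart in 3 genes at 24 h (NUP98, NUP214 and KPNA6) and in 8 at 48 h (NUP58, NUP98, NUP214, NUP50, TPR, KPNA1, KPNA6 and XPO4). NUP214 at 48 h was the only gene with probe sets called in opposite directions. Its other probe set read 4.74, 4.54 and 5.32 in the control arrays and 6.26, 6.07 and 6.24 with Kbr at 24 h. At 48 h this probe set of NUP214 read 4.60, 4.35 and 4.33 in the control arrays and 6.65, 6.16 and 6.32 with Kbr and was higher with Kbr at both times. The direction of NUP214 is not settled by these arrays. For NUP98, 1 probe set read 7.75, 8.0 and 8.78 in the control arrays and 9.78, 9.55 and 9.79 with Kbr at 24 h. At 48 h this probe set of NUP98 read 7.49, 7.60 and 8.08 in the control arrays and 10.46, 10.54 and 10.47 with Kbr. That is a log2 fold change of 1.54 (SE 0.24) at 24 h and 2.77 (SE 0.24) at 48 h, against 0.44 and 0.68 for the chosen probe set, all in the same direction. For NUP58, the probe set that differed most gave 1.30 (SE 0.15) at 24 h and 2.65 (SE 0.15) at 48 h, against 0.60 and 0.82. For TPR, all 5 probe sets were negative, and that which differed most gave -0.84 (SE 0.28) at 24 h and -2.55 (SE 0.28) at 48 h, against -0.58 and -0.69. For KPNA1, 5 of its 6 probe sets were higher with Kbr at both times, from 0.61 to 1.40 at 48 h, and the last gave 0.26 at 24 h and -0.14 at 48 h and was not called. For KPNA4, all 4 probe sets were higher at both times, from 0.36 to 1.33 at 48 h. For RANBP2, the 4 probe sets annotated to it alone ran from 0.39 to 0.59 at 24 h and from 0.69 to 0.96 at 48 h. For TNPO1, the other probe sets ran from 0.41 to 0.66 at 24 h and from 0.29 to 1.24 at 48 h. Each of them was higher at both times, against 0.35 and 0.45 for the chosen probe set. For KPNB1, other probe sets with 0.39, 0.58 and 0.45 at 24 h gave -0.07, 0.23 and 0.20 at 48 h, not called. The remaining ones gave 0.32 and 0.35 at 24 h and 0.44 and 0.53 at 48 h, called at 48 h. For RAN, the other probe set gave 0.49, called, at 24 h and 0.23, not called, at 48 h. For IPO7, the other probe sets ran from 0.28 to 0.51 at 24 h and from 0.21 to 0.23 at 48 h, when none was called. These genes were picked for this account after their values had been seen, and the p-values of single probe sets were adjusted over all probe sets tested.

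**Figure D4:**
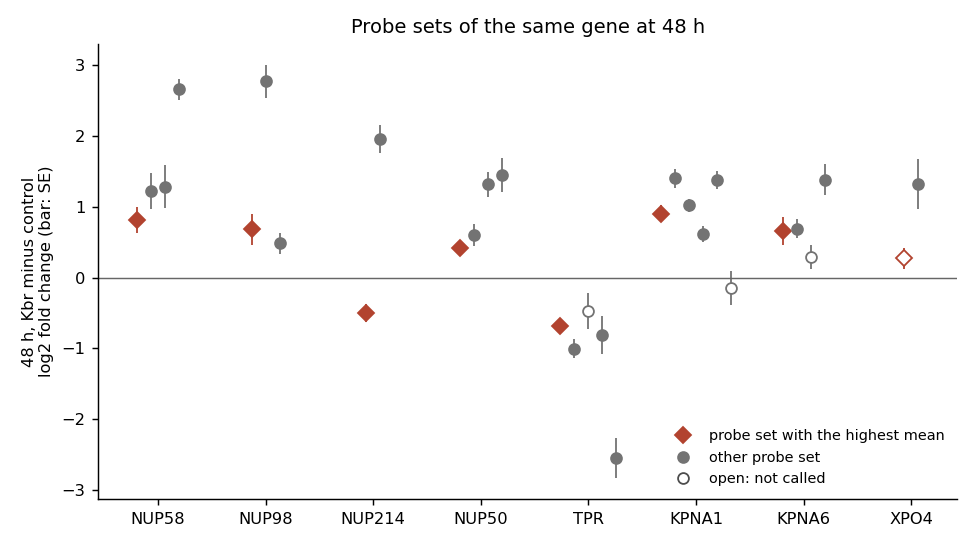
Log2 fold change at 48 h, Kbr minus control, of each probe set of the 8 genes whose probe sets lie more than 1 log2 unit apart, with bars for the moderated standard error (red diamonds for the probe set with the highest mean, grey circles for the others, open for not called). In NUP214 the probe sets lie on opposite sides of 0, and in NUP58, NUP98 and TPR 1 probe set lies far from the rest in the same direction.

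Of 32 other genes of the pathway, 24 were tested, 7 had no probe set of their own and 1 (DDX19B) did not pass the filter. At 24 h 7 of the 24 were higher with Kbr and 1 lower, where 12.4% and 20.0% of all tested genes were, with a median log2 fold change of 0.16. At 48 h 11 were higher and 2 lower, where 26.9% and 32.8% of all tested genes were, with a median of 0.27. RAE1, the messenger RNA export factor that binds NUP98, read 10.71, 10.92 and 11.02 in the control arrays and 11.69, 11.75 and 11.71 with Kbr at 24 h. At 48 h RAE1 read 10.56, 10.59 and 10.69 in the control arrays and 12.44, 12.45 and 12.14 with Kbr. The arrays of RAE1 were far apart at both times, and its Kbr arrays at 48 h were all above those at 24 h. The Kbr effect on RAE1 was a log2 change of 0.83 (SE 0.11, adjusted p = 0.000543) at 24 h and 1.73 (SE 0.11, adjusted p = 1.15e-06) at 48 h, or 1.78-fold and 3.33-fold, larger than that of any of the 46 transport genes at each time. The RAE1 effect was larger at 48 h than at 24 h by 0.90 (SE 0.16, adjusted p = 0.0152). AHCTF1, which seeds new pores on chromatin after mitosis, had 0.89 (SE 0.15, adjusted p = 0.00174) and 1.31 (SE 0.15, adjusted p = 3.48e-05). NXT1, the partner of the messenger RNA exporter NXF1, had 0.33 (SE 0.10, adjusted p = 0.023) and 0.89 (SE 0.10, adjusted p = 2.15e-05), with a difference of 0.56 (SE 0.14, adjusted p = 0.0418). The NXT1 call at 24 h was lost on leaving out any 1 of Kbr 24 h replicates 2 or 3, or control 24 h replicates 1 or 2 (0.27 to 0.34, adjusted p = 0.0546 to 0.0947). The call of its difference between the times was lost on leaving out any 1 of Kbr 24 h replicates 1, 2 or 3, Kbr 48 h replicates 1 or 2, control 24 h replicates 2 or 3, or control 48 h replicates 1 or 2 (0.50 to 0.60, adjusted p = 0.066 to 0.104).

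POM121C, a pore membrane protein, had 0.53 (SE 0.14, adjusted p = 0.0155) at 24 h, lost on leaving out either Kbr 24 h replicate 1, or control 24 h replicate 2 (0.43 and 0.41, adjusted p = 0.0628 and 0.059), and 0.61 (SE 0.14, adjusted p = 0.00306) at 48 h. RANBP3, a cofactor of XPO1, had 0.46 (SE 0.18, adjusted p = 0.0654) and 0.96 (SE 0.18, adjusted p = 0.000768), and with the replicate block was higher at 24 h as well (adjusted p = 0.00486). RANGRF, a RAN-binding protein, had the largest fall of these genes at 24 h: it read 8.13, 8.07 and 8.37 in the control arrays and 7.11, 7.04 and 7.27 with Kbr at 24 h. At 48 h RANGRF read 8.20, 7.98 and 8.25 in the control arrays and 7.47, 7.19 and 7.42 with Kbr, with every Kbr array below every control. The Kbr effect on RANGRF was a log2 change of -1.05 (SE 0.12, adjusted p = 0.000266) at 24 h and -0.78 (SE 0.12, adjusted p = 0.000271) at 48 h. AAAS, a pore protein with WD repeats, had -0.65 (SE 0.31, adjusted p = 0.132) and -0.90 (SE 0.31, adjusted p = 0.0271). AAAS lost its 48 h call on leaving out any 1 of Kbr 48 h replicates 1 or 2, or control 48 h replicates 1 or 3 (-0.93 to -0.66, adjusted p = 0.052 to 0.11). AAAS was, under the replicate block, lower at 24 h as well (adjusted p = 0.0202).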

How the data were processed

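Total RNA of 12 HK-2 cultures was converted to biotin-labelled cRNA for Affymetrix arrays. The deposited values are log2 expression values of 54675 probe sets, which the authors made with GCRMA per the submitters' processing notes; the sources used here name no version. Array medians ran from 2.89 to 2.96. The values were used as deposited. The array platform's annotation gave 41091 probe sets with 1 gene symbol and 1801 with several, which were not used to name a gene. The number of arrays limits the precision.

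Each gene was represented by the probe set annotated to it alone whose mean was highest, and genes over a log2 value of 4 on at least 3 arrays were tested (10574 of 19775). The 4 group means were fitted on all 12 arrays with limma 3.58.1 (lmFit and eBayes, R 4.3.3), with Benjamini-Hochberg adjustment over all tested genes and a threshold of 0.05. The fit was tested on simulated data. The transport genes and the gene lists were chosen with earlier results of these data known. Values on every array are given for the 8 largest absolute changes at each time, the 5 largest differences between the times, the largest and smallest change of each class at each time and, of the other pathway genes, some of the 5 with the largest change at each time; the probe sets of NUP98 and NUP214 were added after their values were seen.

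The labels number the replicates 1 to 3 in each group and call them biological replicates. Deviations from the group means correlated at 0.232 to 0.633 in the 18 same-numbered pairs and at -0.378 to -0.004 in the other 36. Deviations within a group sum to 0, so the values of the 36 pairs are not separate from those of the 18. The numbers were taken to pair the arrays, and a fit with the replicate number as a block was made beside the one without. Calls and standard errors are those of the fit without the block unless the block is named. No batch or scan date was used. The alternatives were no filter, averaged or unsuffixed probe sets, median centring, quantile normalization, fits on only the compared groups, a stricter threshold, the replicate block and leaving out each array. Fitting each probe set on its own was added after the data were seen. Promoter windows came from RefSeq on GRCh38.p14.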

Additional observations from a re-analysis of the deposited data

Results flagged for a closer look

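The effect of Kbr on 3 genes differed between 48 h and 24 h by limma's test of the difference. NUP155 was 1 of the 46 transport genes tested (2.17%), and RAE1 and NXT1 were 2 of the 24 other pathway genes tested (8.33%). Of all tested genes 5.58% were called, 2.09% with a higher effect at 48 h. For NUP155, of the inner ring of the pore, the log2 fold change was 0.89 larger at 48 h. For RAE1, the messenger RNA export factor, it was 0.90 larger, and for NXT1, the partner of NXF1, it was 0.56 larger. RAE1 and NXT1 were higher with Kbr at both times, and NUP155 was at 48 h but did not pass the test at 24 h. From 24 h to 48 h, NUP155 and NXT1 fell in controls (-0.64 and -0.45, limma adjusted p = 0.0226 and 0.0324). With Kbr neither was called over that time (0.25 and 0.11, adjusted p = 0.169 and 0.469). RAE1 was not called in controls (-0.27, adjusted p = 0.192) and rose with Kbr (0.63, adjusted p = 0.00553). The NXT1 difference call was lost on leaving out any 1 of most arrays, and that of NUP155 without control 24 h replicate 3.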

How the results depend on the processing

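The counts of transport genes that differed between Kbr and control moved little with most settings. At an adjusted p under 0.01, 6 rather than 16 were higher at 24 h. Leaving out 1 array gave 9 to 17 higher and 2 to 3 lower at 24 h, and 24 to 27 higher and 5 to 6 lower at 48 h. With the replicate block 5 were lower at 24 h. Genes with a larger Kbr effect at 48 h, 1 as reported, were 2 with averaged probe sets, 8 with the replicate block, 0 at an adjusted p under 0.01 and 0 to 2 with 1 array left out. Those with a smaller effect, 0 as reported, were 1 with unsuffixed probe sets preferred and 1 with the replicate block. In controls, the 4 genes lower at 48 h than at 24 h were 1 with averaged probe sets, 0 in a fit of the control arrays alone, 19 with the replicate block, 0 at an adjusted p under 0.01 and 0 to 6 with 1 array left out, and 1 was higher with the replicate block. Between 24 h and 48 h of Kbr, the 1 gene that rose became 0 without a filter, with unsuffixed probe sets, median centring, quantile normalization, a fit of the Kbr arrays alone or an adjusted p under 0.01, 2 with averaged probe sets, 3 with the replicate block and 0 to 5 with 1 array left out. The 2 that fell became 0 without a filter, in a fit of the Kbr arrays alone or at an adjusted p under 0.01, 1 with averaged probe sets or median centring, 10 with the replicate block and 0 to 4 with 1 array left out. For NUP214 the log2 fold change turned to 0.34 at 24 h and 0.56 at 48 h with averaged probe sets, and to 1.32 and 1.95 with unsuffixed probe sets or the other probe set alone. At 48 h 1 probe set of KPNA1 gave -0.14 and 1 of KPNB1 gave -0.070, neither called. The cause of these shifts was not tested, except that the fits of single groups and those with an array left out use fewer arrays. Of single genes, 93 of 113 calls were the same with the replicate block and 20 were gained, and 1263 of 1356 were the same with 1 array left out, 81 being lost and 12 gained.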
